A study of Mus musculus with 6 samples.

Results

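The genes described here serve protein folding in the endoplasmic reticulum (ER), the unfolded protein response and ER-associated degradation (ERAD). They are 35 genes taken by name from a list that covers the ATF6 and IRE1 sensors, chaperones, disulfide isomerases and ERAD components. All 35 were measured, out of 16583 genes that the array annotation names by 1 symbol. Of them, 33 were found under the listed symbol and 2 under a newer one, Ero1a (listed as Ero1l) and Selenok (listed as Selk). Their RNA was compared in Neuro2a cells, a mouse neuroblastoma line, between 2 groups of 3 Affymetrix Mouse Gene 1.0 ST arrays. The knockdown arrays came from cells given microRNA-type RNA interference vectors against both USF1 and USF2, and the other arrays from cells given the empty vector. Both groups were transfected by lipofection, and the vector system carries EmGFP, a green fluorescent protein. The sources used here do not give the time after transfection or any selection of transfected cells.

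Proteins of the secretory pathway fold in the ER with the help of the HSP70 chaperone BiP, encoded by Hspa5, of lectin chaperones and of disulfide isomerases. When unfolded proteins build up, the membrane sensors ATF6, IRE1 (encoded by Ern1) and PERK switch on a transcription programme that enlarges this folding capacity. Proteins that do not fold are drawn back through the membrane, tagged with ubiquitin and degraded, which is ERAD. USF1 and USF2, the targets of the knockdown, are transcription factors that bind the E-box CACGTG. The comparison asked which genes lie downstream of them in neuronal cells.

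The targeted genes themselves were read first, as a check of the labels. Usf1 had a change of -0.55 ± 0.07 and Usf2 of -0.38 ± 0.06 (knockdown minus empty vector on a log2 scale, SE, n = 3 arrays per group). Their folds were 0.682 and 0.770. For each the knockdown arrays all lay below the empty vector arrays, with an exact two-sided permutation p of 0.10, the smallest that 3 against 3 arrays allow. Neither passed limma's Benjamini-Hochberg adjustment over all genes (adjusted p = 0.320 and 0.348), and protein was not measured. The deposited values are relative to each transcript cluster's own median over the 6 arrays, so they compare arrays for a gene and give no level. The step of rounding left in the numbers places each gene in a brighter class (8 to 16 before the median was taken off) or a dimmer one (4 to 8). Of the 35 ER genes, 30 lay in the brighter class, 3 in the dimmer class and 2 had clusters in both, against 44.1% of all genes in the brighter class. Of 13 measured Neuro2a markers, neuronal and sympathetic genes, 11 lay in the brighter class. Of 17 measured markers of fibroblasts, macrophages and blood, glia and secretory cells, 16 lay in the dimmer class, and the exception was Sdc1. Knockdown array 2 stood apart, with a standard deviation over all clusters of 0.159, against 0.0531 to 0.0780 on the other arrays. On that array the median was -0.03 for bright clusters and 0.07 for dim ones. The labels call the 3 samples of each group biological replicates and do not say what separated them (cultures, transfections or days), so the p-values reflect how far these samples spread.

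None of the 35 ER genes passed limma's adjusted p of 0.05 over all genes, where 1 gene of 16583 did (0.00603%). The adjusted p of the ER genes lay between 0.996 and 0.999. With array quality weights, which rest mostly on knockdown array 1, 3 ER genes passed the adjusted threshold (Atf6, Sdf2l1 and Sel1l) among 1111 of all genes. At an unadjusted limma p under 0.05, 3 were higher after knockdown, Herpud1, Atf6 and Hyou1, and 0 were lower. This is 8.57% of the 35, against a background of 1.6% of all genes higher and 2.65% lower at the same unadjusted p (4.25% either way). Within the brighter class the background was 1.46% higher and 3.52% lower. The count was 1 when knockdown array 1, knockdown array 3 or empty vector array 2 was left out, where 1.27%, 3.70% and 1.01% of all genes were higher. It was 3 without knockdown array 2 (2.51% of all genes), where Selenok took the place of Hyou1. The list was drawn up with earlier results of these data known, Herpud1 among them, so the count is a description.

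The changes of the ER genes were small and lay on both sides of 0. In all, 19 were positive and 16 negative, and 49.6% of all genes were positive. In the brighter class, which held 30 of the 35, 2978 of 7320 genes were positive and 4342 negative. For 17 of the 35 the sign turned under at least 1 alternative or without 1 array. The ER genes had a median of 0.01 on the log2 scale, against -6.6e-04 for all genes and -0.01 for all genes of the brighter class. The median of the absolute change was 0.03 for the ER genes and 0.04 for all genes. The median SE of the ER genes was 0.05. The 95% interval of the change stayed within 1.2-fold either way for 31 of the 35 genes. The exceptions were Dnajb9, Dnajc10, Derl3 and Selenok. Over all 35 the intervals reached from 0.787-fold to 1.25-fold at most. The bound of 1.2-fold was chosen after the values were seen, and arrays can compress fold changes.

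**Figure D1:**
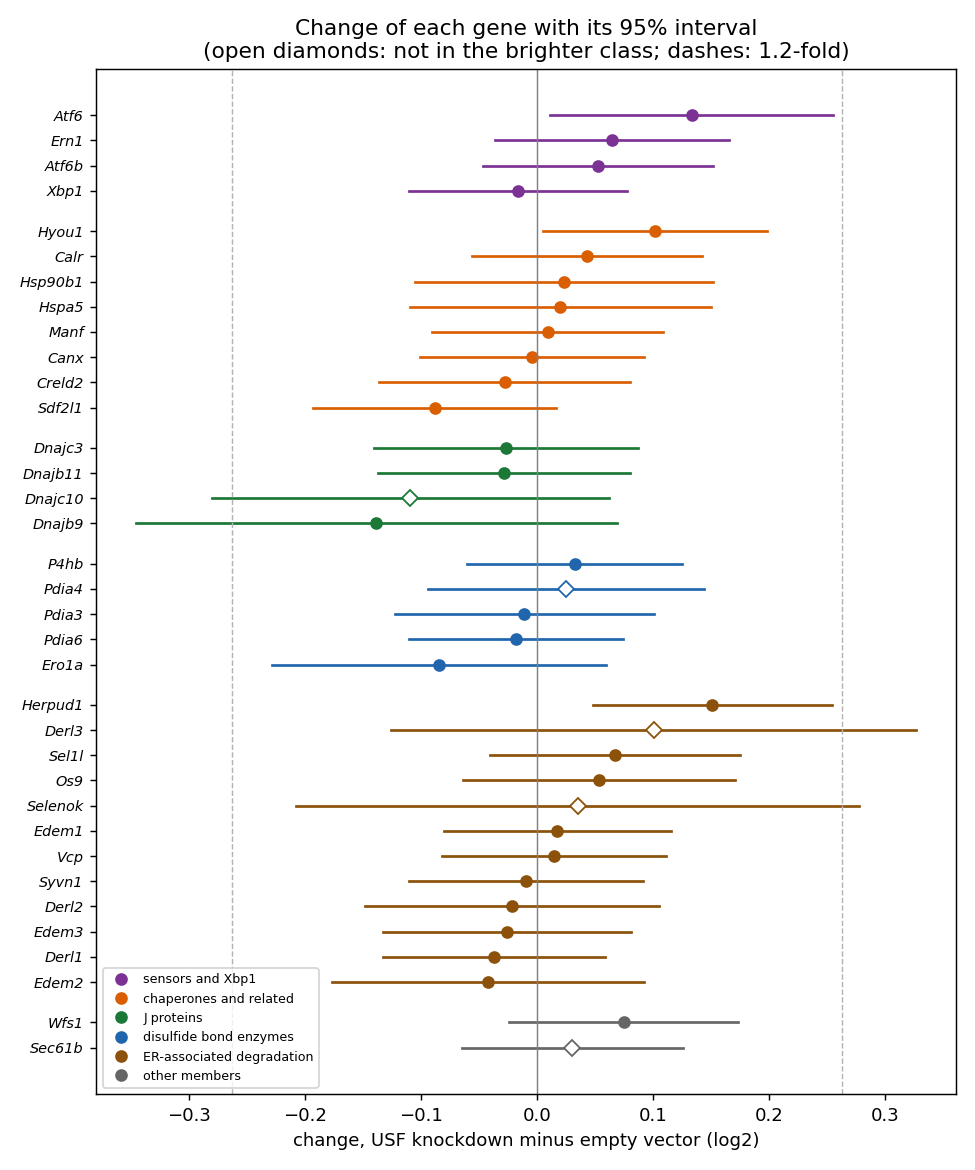
Change of each of the 35 ER genes (knockdown minus empty vector, log2 scale) with its 95% interval from limma, n = 3 arrays per group, grouped by role. Open diamonds mark genes that are not wholly in the brighter class and dashed lines mark 1.2-fold. The intervals of Herpud1, Atf6 and Hyou1 lie above 0, and 4 intervals cross a dashed line.

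Herpud1 had the smallest p and the largest positive change of the list. It encodes a ubiquitin-like membrane protein of the ER that assembles the ERAD machinery and is induced by ER stress. Its relative log2 signal (cluster 10574087, brighter class) was 0.04, 0.12 and 0.09 on knockdown arrays 1, 2 and 3, against -0.10, -0.04 and -0.06 on the empty vector arrays. The groups did not overlap. The change was 0.15 ± 0.04 (SE, n = 3 per group) or 1.11-fold, with a 95% interval of 1.03-fold to 1.19-fold. The unadjusted limma p was 0.00974 and the adjusted one 0.996. The exact permutation p was 0.10. Leaving out 1 array at a time moved the change between 0.13 and 0.17, with an unadjusted limma p under 0.05 in 6 of 6 fits. The result of Herpud1 in these data was known when the list was drawn up. Its values, and fits to parts of the same arrays, are therefore a description and no independent support.

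The start window of Herpud1, the 250 bases before and 50 bases after the gene start in RefSeq, is shown because it holds the kind of response element through which the human gene is known to be induced by ER stress. The window lies at chr8:94386179-94386478 of GRCm38.p6 on the + strand. Capitals mark the fixed bases of ER stress element II, ATTGG and CCACG with 1 base between, at bases 199 to 209 of the window. On either strand this motif was in 12 of 32851 windows (0.0365%), and 2 of these belonged to the ER genes, Herpud1 and Dnajb11.
Herpud1: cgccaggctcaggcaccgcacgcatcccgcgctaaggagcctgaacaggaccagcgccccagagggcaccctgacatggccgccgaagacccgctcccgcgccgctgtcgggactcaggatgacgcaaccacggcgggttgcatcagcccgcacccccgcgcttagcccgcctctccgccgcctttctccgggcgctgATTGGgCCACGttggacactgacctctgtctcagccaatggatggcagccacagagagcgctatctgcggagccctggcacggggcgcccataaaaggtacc

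Among the sensors, Atf6 had the largest change. It encodes a membrane-bound factor that is cut in the Golgi under ER stress, after which its cytosolic part enters the nucleus. Its relative log2 signal (cluster 10359982) was 0.13, -0.0014 and 0.14 on knockdown arrays 1, 2 and 3, against 0.0014, -0.08 and -0.06 on the empty vector arrays. Knockdown arrays 1 and 3 were high, while knockdown array 2 lay just below empty vector array 1, so the groups overlapped. The change was 0.13 ± 0.05 (SE) or 1.10-fold, at an unadjusted limma p of 0.0358 (adjusted 0.996) and an exact permutation p of 0.20. Without knockdown array 2 the change was 0.18. An unadjusted limma p under 0.05 was reached in 2 of 6 fits without 1 array.

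Atf6b, a relative of ATF6, had a relative log2 signal of -0.0014, 0.02 and 0.0014 on the knockdown arrays, against -0.08, -0.07 and 0.0061 on the empty vector arrays. The third empty vector array lay among the knockdown arrays, and the change was 0.05 ± 0.04 (SE, exact permutation p = 0.30). Ern1, the kinase and endonuclease IRE1 that splices Xbp1 RNA, had 0.04, 0.0039 and 0.06 on the knockdown arrays, against -0.0069, -0.08 and -0.0039 on the empty vector arrays. All knockdown arrays of Ern1 lay above all empty vector arrays, by a gap far smaller than the spread within either group, and its change was 0.07 ± 0.04 (SE, exact permutation p = 0.10). Xbp1, the factor that IRE1 activates, had 0.0097, -0.0097 and -0.04 on the knockdown arrays, against 0.02, 0.01 and -0.02 on the empty vector arrays. Its groups overlapped, with a change of -0.02 ± 0.04 (SE, exact permutation p = 0.50). RNA signals of this kind do not read the cutting of ATF6 or the splicing of Xbp1, which carry the response.

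**Figure D2:**
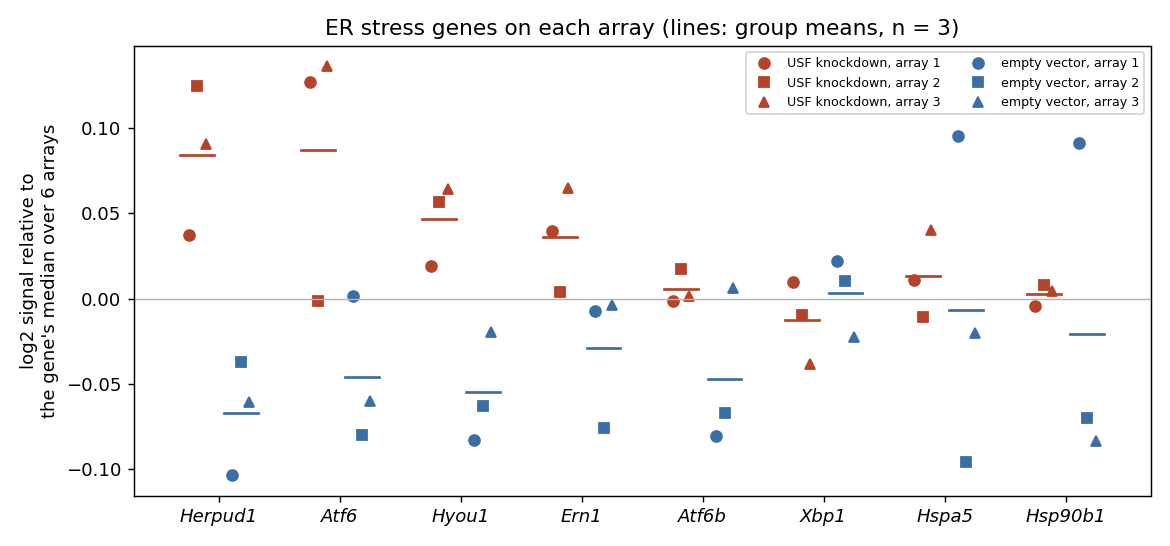
Relative log2 signal (y axis, relative to the gene's median over the 6 arrays) of 8 ER genes on each array, knockdown in red and empty vector in blue. Lines are group means, n = 3. Herpud1, Hyou1 and Ern1 show no overlap between the groups, whereas for Hspa5 and Hsp90b1 the empty vector arrays spread on both sides of the knockdown arrays.

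The ER chaperones that are read as markers of the unfolded protein response had changes whose sign was not settled. For Hspa5, which encodes BiP, the relative log2 signal (cluster 10471586) was 0.01, -0.01 and 0.04 on the knockdown arrays, against 0.10, -0.10 and -0.02 on the empty vector arrays. The empty vector arrays enclosed all 3 knockdown arrays. The change of Hspa5 was 0.02 ± 0.06 (SE, exact permutation p = 0.70), with a 95% interval of 0.927-fold to 1.11-fold. Hsp90b1, the HSP90 protein of the ER lumen (GRP94), had -0.0045, 0.0082 and 0.0045 on the knockdown arrays, against 0.09, -0.07 and -0.08 on the empty vector arrays. Here too empty vector array 1 was high and the other empty vector arrays low. Its change was 0.02 ± 0.06 (SE, exact permutation p = 0.90), with an interval of 0.930-fold to 1.11-fold. For both genes the spread within the empty vector group, a range of 0.19 and 0.17, was several times the difference between the groups. Leaving out 1 array at a time moved the change of Hspa5 between -0.02 and 0.07 and that of Hsp90b1 between -0.0081 and 0.08.

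Hyou1, a large HSP70-related chaperone that acts as an exchange factor for BiP, stood apart from these. Its relative log2 signal (cluster 10584712) was 0.02, 0.06 and 0.06 on the knockdown arrays, against -0.08, -0.06 and -0.02 on the empty vector arrays. The groups did not overlap. Its change was 0.10 ± 0.04 (SE) or 1.07-fold, at an unadjusted limma p of 0.0411 (adjusted 0.996) and an exact permutation p of 0.10. An unadjusted limma p under 0.05 was reached in 1 of 6 fits without 1 array. Sdf2l1, a partner of the BiP co-chaperone Dnajb11, lay the other way. It had -0.05, -0.0018 and -0.02 on the knockdown arrays, against 0.0018, 0.10 and 0.10 on the empty vector arrays. All knockdown arrays were below all empty vector arrays, with a change of -0.09 ± 0.05 (SE, exact permutation p = 0.10).

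Of the lectin chaperones, which hold glycoproteins during folding, Calr (calreticulin) had a change of 0.04 ± 0.04 (SE) and Canx (calnexin) of -0.0041 ± 0.04. The secreted stress-induced proteins Manf and Creld2 had changes of 0.0091 ± 0.04 and -0.03 ± 0.05 (SE). Over the 8 chaperones and related proteins the median change was 0.01, with 5 positive and 3 negative.

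J proteins bring unfolded clients to BiP, and all 4 had negative changes over the 6 arrays, which for 2 of them turned without knockdown array 2. Negative changes were found for 8362 of all 16583 genes and for 4342 of the 7320 genes of the brighter class. Dnajb9 (ERdj4), which also holds IRE1 inactive, had a change of -0.14 ± 0.09 (SE, exact permutation p = 0.30). Its relative log2 signal was -0.01, -0.33 and 0.01 on knockdown arrays 1, 2 and 3, against 0.0020, 0.08 and -0.0020 on the empty vector arrays. Knockdown array 2 alone was far below the others. Without it the change was -0.03. Dnajc10 (ERdj5), a J protein with disulfide reductase activity, lay in the dimmer class and had -0.02, -0.19 and 0.04 on the knockdown arrays, against 0.16, -0.0046 and 0.0046 on the empty vector arrays. Its change was -0.11 ± 0.07 (SE) and -0.04 without knockdown array 2. Dnajb11 (ERdj3) and Dnajc3 (the co-chaperone P58IPK) had changes of -0.03 ± 0.05 each (SE), and 4.4e-04 and 0.0072 without knockdown array 2. Against the empty vector mean, the median of the 4 J proteins was -0.02, -0.17 and -0.01 on knockdown arrays 1, 2 and 3. All genes of the brighter class had a median of -0.04 on knockdown array 2. What set that array apart was not tested.

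**Figure D3:**
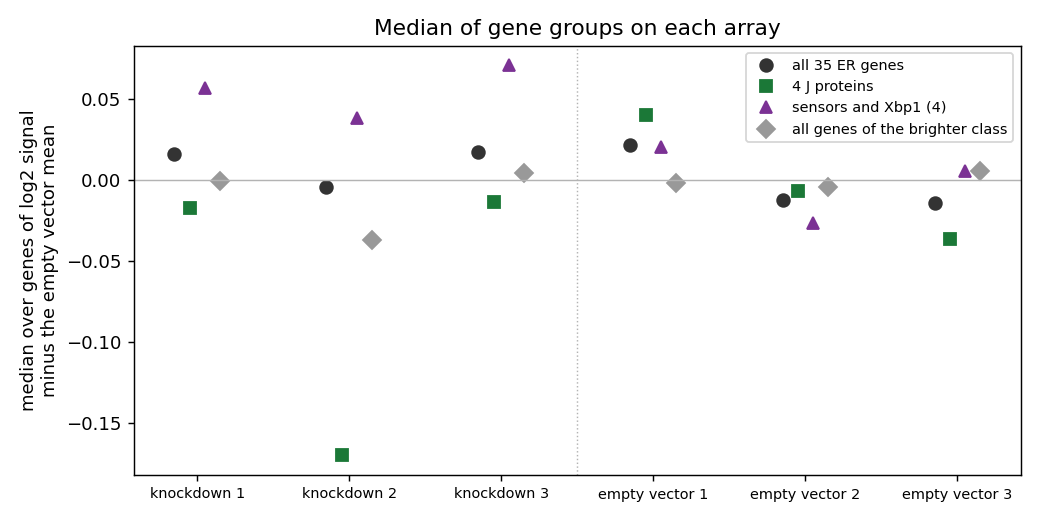
Median over genes of the log2 signal minus the mean of the empty vector arrays (y axis) for all 35 ER genes, the 4 J proteins, the sensors with Xbp1 and all genes of the brighter class, on each array. The ER genes lie within 0.03 of 0 on every array, and the J proteins are low on knockdown array 2.

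Enzymes that make and rearrange disulfide bonds showed no shared direction. The isomerases P4hb, Pdia4, Pdia3 and Pdia6 had changes of 0.03 ± 0.04, 0.02 ± 0.05, -0.01 ± 0.05 and -0.02 ± 0.04 (SE). Pdia4 was read by 2 clusters, 1 of them outside the brighter class, with changes of 0.03 and 0.02. Ero1a, the oxidase that recharges these isomerases, had a change of -0.08 ± 0.06 (SE, exact permutation p = 0.50). On knockdown array 2 it was at -0.15, against 0.12 on empty vector array 1. Its other arrays lay between -0.03 and 0.01.

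ERAD components other than Herpud1 gave 6 positive and 5 negative changes, 0 of them at an unadjusted limma p under 0.05. The core of the retrotranslocation complex, the ubiquitin ligase Syvn1 (HRD1) and its adaptor Sel1l, had changes of -0.0092 ± 0.04 and 0.07 ± 0.05 (SE). The derlins, channel-forming partners of this complex, had -0.04 ± 0.04 for Derl1, -0.02 ± 0.05 for Derl2 and 0.10 ± 0.10 for Derl3. Derl3 lay in the dimmer class, and its relative log2 signal was -0.09, 0.31 and 0.03 on the knockdown arrays, against -0.03, 0.06 and -0.08 on the empty vector arrays. Its change turned to -0.01 without knockdown array 2, the highest of the 6.

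The mannosidase-like proteins that mark misfolded glycoproteins, Edem1, Edem2 and Edem3, had changes of 0.02 ± 0.04, -0.04 ± 0.06 and -0.03 ± 0.05 (SE). The lectin Os9, which reads these marks, had 0.05 ± 0.05, and Vcp, the ATPase that pulls clients out of the membrane, 0.01 ± 0.04. Selenok, a selenoprotein of the ER membrane that binds derlins, had a change of 0.04 ± 0.10 (SE) in the dimmer class. It was at 0.10, -0.24 and 0.17 on the knockdown arrays, against 0.06, -0.08 and -0.06 on the empty vector arrays. Knockdown array 2 was the lowest, the other knockdown arrays the highest, and without that array the change was 0.16. The annotation also holds a pseudogene, Selenok-ps1, so a share of this signal may not be its own.

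The remaining members were Sec61b, a subunit of the protein-conducting channel, and Wfs1 (wolframin), an ER membrane protein that restrains ATF6. Sec61b had a change of 0.03 ± 0.04 (SE) over 3 clusters at 0.05, 0.01 and 0.03. These clusters were of different brightness, and whether each reads Sec61b itself was not tested. Wfs1 had 0.0041, 0.07 and 0.09 on the knockdown arrays, against -0.03, -0.03 and -0.0041 on the empty vector arrays. All knockdown arrays of Wfs1 lay above all empty vector arrays, with a change of 0.07 ± 0.04 (SE, exact permutation p = 0.10). In all, the groups did not overlap for 4 genes with the knockdown higher (Herpud1, Hyou1, Ern1 and Wfs1) and for 1 with the knockdown lower (Sdf2l1). These are 11.4% and 2.86% of the 35 genes, against 4.33% and 5.95% of all genes. Of the 7320 genes of the brighter class, 400 had no overlap with the knockdown higher and 630 with the knockdown lower.

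The spread within groups set the scale of these differences. For 28 of the 35 ER genes the change between groups was smaller than the range of the 3 empty vector arrays. For 33 of them it was smaller than the wider of both groups' ranges, and the exceptions were Herpud1 and Hyou1. Empty vector array 1 held the highest value of 11 ER genes and the lowest of 7. Knockdown array 2 held the highest value of 5 and the lowest of 11. The median of the 35 genes against the empty vector mean was 0.02, -0.0042 and 0.02 on knockdown arrays 1, 2 and 3, against 0.02, -0.01 and -0.01 on the empty vector arrays.

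Start windows of the ER genes were searched because many members are known targets of ATF6 and XBP1 through the ER stress element, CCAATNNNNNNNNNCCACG. RefSeq gave 32 windows of 300 bases for 31 of the 35 genes, and none was at hand for Atf6, Hyou1, Manf and Derl1. On either strand the ER stress element was in 9 of these 32 windows, against 39 of all 32851 windows (0.119%). Hsp90b1 held it at 2 places. The window of Hspa5 is shown as the classical example. It lies at chr2:34771840-34772139 of GRCm38.p6 on the + strand, and capitals mark the fixed bases of the element at bases 186 to 204.
Hspa5: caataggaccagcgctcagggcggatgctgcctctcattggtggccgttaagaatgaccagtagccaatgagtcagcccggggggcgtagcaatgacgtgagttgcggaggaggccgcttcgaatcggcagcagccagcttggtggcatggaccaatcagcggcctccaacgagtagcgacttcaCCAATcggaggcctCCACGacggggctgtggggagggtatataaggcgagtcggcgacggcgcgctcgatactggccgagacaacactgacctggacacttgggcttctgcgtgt

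The other copies of the ER stress element are set out here to show how the 9 bases between its fixed ends vary. Each is written from CCAAT to CCACG, on the strand that reads so, with the fixed bases in capitals. For Calr, Derl3, Creld2 and the second site of Hsp90b1 this is the strand opposite to the gene.
Calr (chr8:84847075-84847093): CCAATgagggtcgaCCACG
Canx (chr11:50325800-50325818): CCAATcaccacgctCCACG
Creld2 (chr15:88819520-88819538): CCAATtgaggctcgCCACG
Derl3 (chr10:75893242-75893260): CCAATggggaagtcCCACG
Dnajc3 (chr14:118937827-118937845): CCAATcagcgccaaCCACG
Hsp90b1, first site (chr10:86705638-86705656): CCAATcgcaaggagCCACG
Hsp90b1, second site (chr10:86705533-86705551): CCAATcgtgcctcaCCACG
Pdia6 (chr12:17266491-17266509): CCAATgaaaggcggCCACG
Syvn1 (chr19:6046532-6046550): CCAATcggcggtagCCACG

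The 9 genes with this element had changes from -0.03 to 0.10 on the log2 scale with a median of -0.0041, and 0 of them were at an unadjusted limma p under 0.05. The highest of these changes was that of Derl3, which rests on knockdown array 2. ER stress element II gave Herpud1 (0.15 ± 0.04, SE) and Dnajb11 (-0.03 ± 0.05). The 20 genes with a window but neither element had changes from -0.14 to 0.07 with a median of 0.02, and 0 were at an unadjusted limma p under 0.05. The 4 genes without a window had changes from -0.04 to 0.13 with a median of 0.06, and could not be placed. Of them 2, Atf6 and Hyou1, were higher at an unadjusted limma p under 0.05, against 1.6% of all genes.

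The E-box CACGTG, which reads the same on both strands, is shown because it is the sequence USF factors bind. It was in 4 of the 32 windows of ER genes, against 2349 of all 32851 windows (7.15%). In these lines the E-box stands in capitals with 10 bases on each side, read along the gene.
Atf6b (chr17:34647098-34647103): tccttcgtgtCACGTGttcaccaact
Calr (chr8:84847150-84847155): gaggttcagtCACGTGaccgtgcctg
Derl3 (chr10:75893230-75893235): caacaaccgcCACGTGctctaccgtg
Dnajb9 (chr12:44210170-44210175): aacagttttcCACGTGcgcgtagggc

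These 4 genes had changes of 0.05 (Atf6b), 0.04 (Calr), 0.10 (Derl3) and -0.14 (Dnajb9), and 0 of them were at an unadjusted limma p under 0.05. The changes of Derl3 and Dnajb9 rest on knockdown array 2. The unfolded protein response element TGACGTGG was in the window of Vcp and in 222 windows in all (0.676%). A match of letters does not show binding, and its absence from a window of this length says nothing of sites elsewhere.

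**Figure D4:**
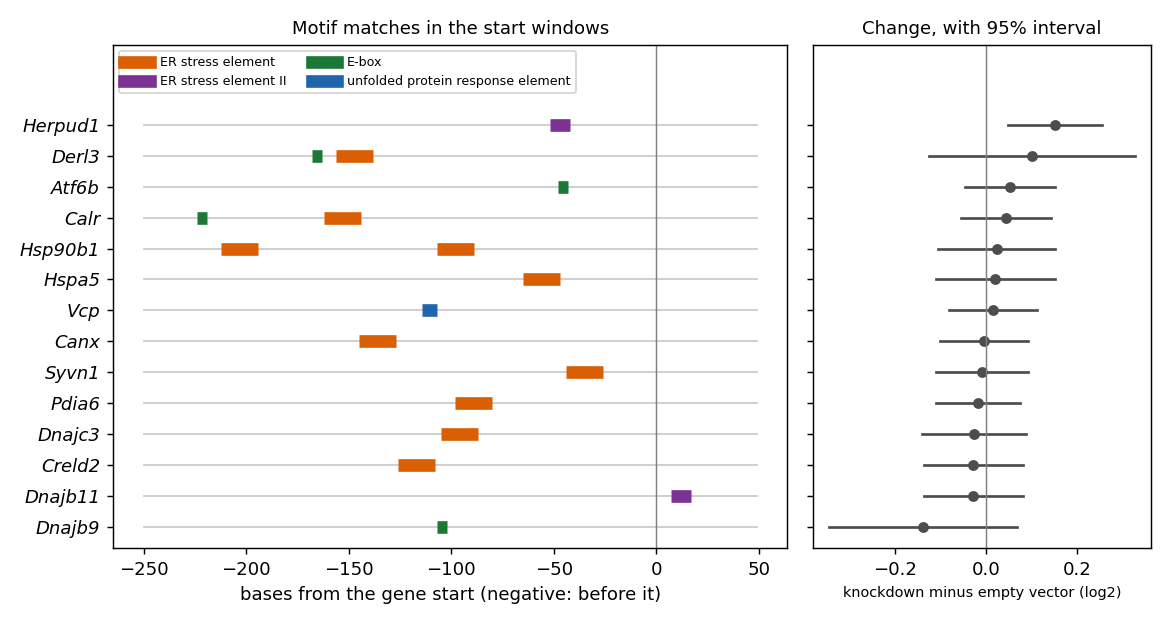
Left, places of the ER stress element, ER stress element II, the E-box and the unfolded protein response element in the start windows of 14 ER genes, in bases from the gene start. Right, the change of each gene with its 95% interval (knockdown minus empty vector, log2 scale, n = 3 per group), with genes ordered by change. The interval of Herpud1 lies above 0, and the intervals of the other 13 cross it.

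Other genes of the same pathways were taken as 8 further lists of 79 genes, 75 of them measured. None passed limma's adjusted threshold over all genes, and at an unadjusted p under 0.05 limma counted 6 higher and 3 lower, against 1.6% of all genes higher and 2.65% lower. Their median change was -0.0040, with 36 positive and 39 negative, against 49.6% of all genes positive. In the brighter class, which held 65 of the 75, 2978 of 7320 genes were positive.

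The PERK arm slows translation and raises a set of stress genes through ATF4, and it held 4 of the 6 higher genes, out of 9 measured of 10 listed, against 1.6% of all genes higher at the same p. Ddit3, the stress-induced factor CHOP, had a relative log2 signal of 0.06, 0.10 and 0.22 on the knockdown arrays, against -0.21, -0.06 and -0.14 on the empty vector arrays. The groups did not overlap, and the change was 0.27 ± 0.06 (SE, limma adjusted p = 0.794). The others were Ppp1r15a, which restores translation (a change of 0.18 ± 0.06, SE), the pseudokinase Trib3 (0.15 ± 0.05) and the factor Atf3 (0.15 ± 0.06). The groups of Atf3 overlapped, and Ppp1r15a lay in the dimmer class. Without 1 array, Ddit3 reached an unadjusted limma p under 0.05 in 6 of 6 fits and Trib3 in 5. Ppp1r15a and Atf3 each reached it in 3 of 6. Eif2ak3, the sensor PERK itself, and Atf4 had changes of 0.04 ± 0.06 and 0.02 ± 0.05 (SE). Eif2ak3 and Atf4 are named after their values were seen. The changes of Ddit3 and Trib3 were known when this list was drawn up.

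NF-Y binds the CCAAT of the ER stress element as a complex of 3 subunits, and their changes differed in sign. Nfya had a relative log2 signal of 0.07, 0.03 and 0.08 on the knockdown arrays, against -0.03, -0.12 and -0.12 on the empty vector arrays. Its groups did not overlap and its change was 0.15 ± 0.05 (SE). Nfyc had a change of -0.12 ± 0.05 (SE), the mean of 2 clusters of different brightness at -0.03 and -0.21. The first of these was not at an unadjusted limma p under 0.05 when taken alone, and the second was not fitted alone. Whether both clusters read Nfyc itself was not tested. Nfyb, named to complete the complex after its values were seen, had -0.17 ± 0.08 (SE), with -0.06, -0.32 and -0.02 on the knockdown arrays, against 0.06, 0.04 and 0.02 on the empty vector arrays.

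Of the remaining lists, glucosidases and glycan checkpoint enzymes (5 measured), translocon and signal peptidase subunits (13) and other disulfide isomerases (9) held 0 genes at an unadjusted limma p under 0.05. N-glycosylation genes (9 measured) held 1, Tusc3, an oxidoreductase subunit of the oligosaccharyltransferase, with a change of -0.17 ± 0.05 (SE). It was -0.04, -0.11 and -0.15 on the knockdown arrays, against 0.06, 0.11 and 0.04 on the empty vector arrays, with no overlap. Sil1, an exchange factor for BiP, was the 1 of 5 other J proteins and exchange factors, at -0.13 ± 0.06 (SE), and its groups overlapped. Rnf185, an ERAD ubiquitin ligase, was the 1 of 18 further ERAD genes, at 0.11 ± 0.04 (SE) with no overlap. Without 1 array, Sil1 and Rnf185 each reached an unadjusted limma p under 0.05 in 2 of 6 fits, and Tusc3 in 6. All 9 genes had a limma adjusted p of 0.794 or more. With array quality weights 7 of them passed the adjusted threshold, the exceptions being Nfyc and Tusc3, where 1111 of all genes passed.

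Markers of other cell types, 16 of 17 in the dimmer class, were mostly high on knockdown array 2, on which dim clusters as a whole had a median of 0.07. Against the empty vector mean the median of 6 fibroblast markers was 0.03, 0.26 and -0.12 on knockdown arrays 1, 2 and 3, and that of 3 secretory cell markers -0.02, 0.11 and -0.04. The medians of 4 macrophage and blood markers were 0.07, 0.09 and 1.7e-04, and those of 4 glial markers 0.05, 0.13 and 0.05. On the empty vector arrays these 4 medians lay between -0.08 and 0.06. The 13 Neuro2a markers had medians of -0.01, -0.02 and 0.03 on the knockdown arrays, against -0.04, 0.02 and 0.02 on the empty vector arrays. At an unadjusted limma p under 0.05, 3 of the 13 Neuro2a markers were lower (Dbh, Chgb and Elavl4), against 2.65% of all genes, and 0 of the others passed. The part of other cells in the values of the ER genes was not tested. In such bulk samples fewer cells of a type and less RNA per cell cannot be told apart.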

How the data were processed

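The table deposited by the authors holds 22891 transcript clusters and 6 arrays, and its values were read as log2 from their rounding step. The median of each cluster is 0 in it (largest absolute median 5e-07). RNA was amplified with an Ambion kit and labelled with an Affymetrix kit for whole transcripts, per the labels' protocols. The sources used here do not give the background correction, the normalization between arrays or any filter. Differences between arrays that were whole multiples (tolerance 0.05) of a single-precision step gave the brightness classes (9975 clusters brighter, 12915 dimmer, 1 unknown), which are not measured levels. Groups come from the sample titles.

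Clusters with 1 symbol in the platform annotation (18087) were averaged per gene (861 genes had several). Older symbols were matched through a RefSeq table of GRCm38.p6. limma 3.58.1 (lmFit and eBayes, R 4.3.3) gave the changes over all genes, with Benjamini-Hochberg adjustment and 4 residual and 3.79 prior degrees of freedom. Intervals use the same fit. The method was checked on simulated arrays with 200 changed genes. There 22.2% of log2 changes of 0.25 passed the adjusted threshold, 85.8% of those of 0.5 and 97.9% of those of 1. The changes of the ER genes, from -0.14 to 0.15, were smaller than these. The number of arrays limits the precision (median SE over all genes 0.0561). The members and all lists were chosen with earlier results of these data known. All 35 members are named, and of the other lists those at an unadjusted p under 0.05, with Eif2ak3, Atf4 and Nfyb added after their values were seen. Alternatives were another normalization, centring, variance model, array weights, a brightness filter, the first cluster of a gene, the replicate number as a block and each array left out. Figures were made with Python 3.11.15 and matplotlib 3.10.9.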

Additional observations from a re-analysis of the deposited data

How the results depend on the processing

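The count of ER genes past limma's adjusted threshold was 0 under each alternative except array quality weights, which gave 3 (Atf6, Sdf2l1 and Sel1l), 7 (higher) and 1 (lower) with an unadjusted p under 0.05 (10.99% and 15.27% of all genes), and 1111 calls among all genes. In that fit knockdown array 1 had a weight of 33.0 and the other knockdown arrays 0.136 and 0.441, so the knockdown mean was nearly that of 1 array. Leaving out 1 array at a time gave 1 to 3 higher ER genes and 0 to 1 lower ones with an unadjusted p under 0.05, where 0.959% to 3.70% of all genes were higher and 1.27% to 5.01% lower, and 0 to 1 calls among all genes. The median change of the ER genes lay between -0.0016 and 0.03 over all alternatives, within the spread between arrays (SD 0.02) of its reported value. It was -0.0016 with knockdown array 1 left out and -0.0013 with empty vector array 2 left out, so its sign is not settled. With the replicate number as a block, 2 ER genes were higher at an unadjusted p under 0.05 and 0 of all genes were called, against 1 without it. Same-numbered arrays had correlations of deviations of 0.0031, 0.08 and 0.04, and not every array correlated best with its own number. Correlations this small, from 3 arrays per group, cannot tell whether same-numbered arrays shared a culture or a day. Taking the 33 genes under their listed symbol, an alternative chosen after seeing the data, left the counts at 3 and 0. Over the 49 named genes, 629 values under alternatives were compared with the reported ones, and 13 passed the adjusted threshold, all with array weights: Usf1, Usf2, Atf6, Sdf2l1, Sel1l, Ddit3, Ppp1r15a, Trib3, Atf3, Eif2ak3, Nfya, Sil1 and Rnf185. The sign turned under at least 1 alternative for 18 of the 49, 17 of them ER genes. The deposited values do not give signal over background, so its limits on the dimmer genes could not be read.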
